A study of Mus musculus with 12 samples.

Results

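The genes described here are 33 genes of the lysosome and of autophagy, chosen by symbol for their known place in these pathways. They were chosen with earlier results of these data known, so a difference between them and all tested genes is not independent evidence. All 33 were among the 24421 gene symbols of the count files, and all 33 were among the 11638 genes kept for testing, which reached 1 CPM (a count scaled to a library of 1e+06 counts) in 3 or more of the 12 libraries. The data are RNA sequencing counts from B16F10, an established mouse melanoma line. The 4 groups had 3 replicates each: control cells that received only the solvent dimethyl sulfoxide (DMSO), cells with 5-aza-2'-deoxycytidine (DAC, 25 nM for 72 h), cells with sulforaphane (SFN, for 48 h), and cells with both drugs (DAC+SFN). All groups were the same unmodified line. SFN, a sulfur compound of broccoli and related plants, activates the NRF2 response, and DAC, a nucleoside analog, blocks the methylation of DNA. The methods of the study give the same micromolar SFN dose for both SFN groups, whereas the labels give 5 nM for SFN alone and 5 µM for the combination treatment. By the labels, then, DAC cannot be told apart from the SFN dose in the comparison of DAC+SFN with SFN, nor in the interaction.

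Lysosomes are acidic organelles that break down proteins, sugars and lipids. Their hydrolases, among them the cathepsins, work in the acid that a proton pump, the V-ATPase, makes, behind a membrane rich in LAMP proteins. Autophagy brings parts of the cell to the lysosome: the ULK1 kinase and the BECN1 lipid kinase complex start a membrane sac, and proteins of the ATG8 family are conjugated to it. TFEB and TFE3 are transcription factors that switch on many of these genes when they enter the nucleus. In pigment cells, melanosomes are made from the same endosomal system, and MITF, the master factor of the lineage, belongs to the same family as TFEB.

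Each library held between 15880957 and 27291436 counts, and the 33 genes held between 0.867% and 1.20% of them. The least counted of the 33, Tfeb, had at least 261 counts in every library, so none was near the detection limit. All 7 melanocyte lineage markers examined were high, with Mitf, at a mean of 339 to 374 CPM per group, the lowest of them. The 3 leukocyte and macrophage markers had no more than 3 counts per library. Nqo1, a known target of the NRF2 response to SFN, was between 5.61 and 10.6 CPM in the 6 libraries without SFN and between 33.2 and 38.6 CPM in the 6 libraries with it. Libraries that shared a replicate number deviated together, and Col1a1, the gene of a collagen chain, was at 15.6 to 24.1 CPM in the 4 libraries of replicate 2 and at 245 to 356 CPM in those of replicate 3. The replicate number was therefore a block in every test.

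Per kilobase of exon, Ctsd, which encodes the aspartic protease cathepsin D, had the highest level in control cells, 727 ± 60.6 CPM per kb (SD, n = 3). Ctsz, Lamp1 and Psap followed at 302 ± 30.2, 298 ± 13.8 and 291 ± 11.8 CPM per kb, which did not differ beyond their spread. Hexa came next at 198 ± 16.6 CPM per kb, and Ctsb was at 99.2 ± 22.4 CPM per kb. The lowest levels were those of Ulk1, Mcoln1, Atg7 and Tfeb, at 5.71, 5.36, 5.08 and 3.20 CPM per kb. The 5 highest were genes of lysosomal contents and membrane, and of the 7 lowest all but Gla and Mcoln1 were autophagy genes or transcription factors. With DAC+SFN, Ctsd reached 1289 CPM per kb and Tfeb was again the lowest of the 33, at 2.45 CPM per kb.

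**Figure D1:**
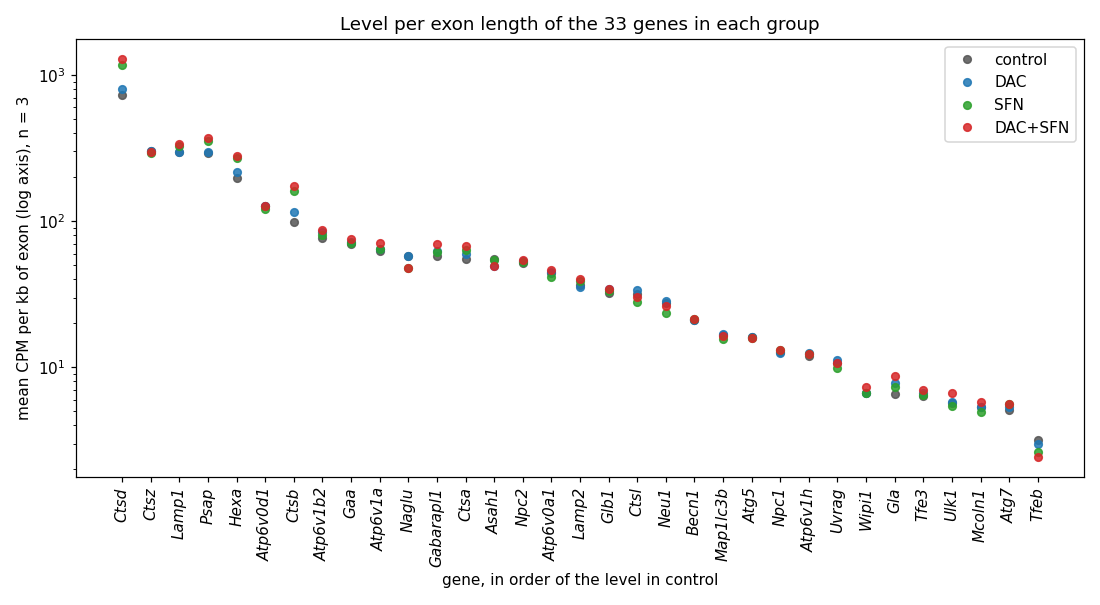
Mean level of each of the 33 genes in the 4 groups, in CPM per kilobase of exon on a log axis, with the genes in the order of the control level. Ctsd is highest in every group and Tfeb lowest, and the marks of the 4 groups lie close together for most genes.

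The promoters are shown because TFEB and its relatives bind a motif built around the letters CACGTG. A RefSeq promoter window, from 250 bases before to 50 bases after a gene's start, was found for 27 of the 33 genes. CACGTG stood in a window of 13 of these 27 genes (48.1%), against 1077 of 8966 tested genes with a window (12%) and 7.15% of all 32851 mouse windows. The extended form TCACGTGA, which contains CACGTG, stood in 6 of the 27 genes (22.2%), against 2.22% of the tested genes and 0.974% of all windows. CATGTG, the other core that MITF binds, stood in 3 of them (11.1%), against 9.97% of the tested genes and 14.2% of all windows. TGACNNNGC, the core of the element bound by NRF2, stood in 8 of them (29.6%), against 17.1% of the tested genes and 12.4% of all windows. Of 115 further genes of these pathways with a window, from the lists described below, CACGTG stood in 21 (18.3%) and TCACGTGA in 8 (6.96%). CATGTG stood in 13.9% of these 115 genes and TGACNNNGC in 16.5%. Both strands were searched. CACGTG was found in 5 of the 9 genes with a window that rose with DAC+SFN, in 1 of the 2 that fell and in 7 of the 16 that did not pass the test. A match describes the letters only, and binding was not measured.

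The stretches that hold the motif in 6 genes that rose or fell with the combination treatment, and in Atp6v0d1, which did not pass the test and is shown for contrast, read 5′ to 3′ on the gene's strand as follows, with CACGTG in capitals (RefSeq, mouse build GRCm38.p6).
Ctsd (chr7:142387900-142388077, minus strand): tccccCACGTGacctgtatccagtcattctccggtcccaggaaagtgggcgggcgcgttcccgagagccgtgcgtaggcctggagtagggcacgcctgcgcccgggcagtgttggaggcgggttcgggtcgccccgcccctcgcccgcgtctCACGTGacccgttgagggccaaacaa
Gla (chrX:134601174-134601252, minus strand): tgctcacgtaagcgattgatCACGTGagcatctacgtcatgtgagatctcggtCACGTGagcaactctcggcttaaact
Ctsa (chr2:164833741-164833792, plus strand): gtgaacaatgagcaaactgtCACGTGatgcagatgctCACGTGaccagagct
Lamp1 (chr8:13159080-13159171, plus strand): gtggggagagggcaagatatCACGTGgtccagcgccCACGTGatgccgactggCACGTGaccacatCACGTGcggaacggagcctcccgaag
Naglu (chr11:101070001-101070046, plus strand): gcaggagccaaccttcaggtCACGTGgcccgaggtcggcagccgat
Atp6v1a (chr16:44139365-44139410, minus strand): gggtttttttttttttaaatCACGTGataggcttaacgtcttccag
Atp6v0d1 (chr8:105566045-105566087, minus strand): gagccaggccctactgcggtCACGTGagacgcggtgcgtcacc

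Lamp1 had the motif 4 times within 61 bases before its start, and Ctsd had it 245 and 98 bases before. In Gla it stood 227 and 194 bases before the start. The printed Ctsa stretch is from the window at chr2:164833523-164833822. The Ctsa window at chr2:164832622-164832921, which spans the annotated start of the gene, held no CACGTG. The motif of Atp6v0d1, a V-ATPase subunit gene with a log2 fold change of 0.01 with DAC+SFN, stood 3 bases before the start. A window with CACGTG was present in genes that rose, in Naglu, which fell, and in genes that did not pass the test. Of the last, Atp6v0d1 had the highest adjusted p-value, so its small difference does not stand for the others.

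The combination treatment was compared with control to ask which of these genes moved when both drugs were given. Of the 33 genes, 11 rose and 2 fell at an adjusted p-value under 0.05, which is 33.3% and 6.06% of them, where 17% of all tested genes rose and 14.7% fell. The median log2 fold change was 0.10 over the 33 genes and 0.0078 over all tested genes. The rises were in 3 of 5 cathepsins, 3 of 8 other hydrolases and activators, 1 of 5 membrane proteins, 2 of 5 V-ATPase subunits and 2 of 8 autophagy genes, and the falls were in 1 hydrolase and 1 of 2 transcription factors. No gene passed a fold change of 2, the study's threshold, which 2.66% of all tested genes passed in either direction. The changes were therefore small, and the highest was 1.76-fold. Without the replicate block, 6 of the 33 genes passed the test in place of 13 (10.3% of all tested genes did), and 8 passed without control replicate 2 (20.1% of all). Of the 7 melanocyte markers, Pmel (log2 fold change -0.36, adjusted p = 0.0129) and Tyrp1 (-0.17, adjusted p = 0.0478) also fell with DAC+SFN. The others did not pass the test. Mitf (-0.081) and Dct (-0.14) were lower, and Tyr (0.093), Sox10 (0.074) and Mlana (0.0011) were higher. Against DAC, Tyr rose with the combination (0.16, adjusted p = 0.0442). The summed level of the 7 was 24236 to 30091 CPM in control and 21417 to 28412 CPM with DAC+SFN. Of the 3 fibroblast markers, Pdgfra, at a mean of 2.56 CPM in control, fell with SFN (-0.84, adjusted p = 0.0240) and DAC+SFN (-0.73, adjusted p = 0.0249), Col1a1 did not pass the test, and Dcn was below the filter. The part of these moves in the changes of the 33 genes was not tested.

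**Figure D2:**
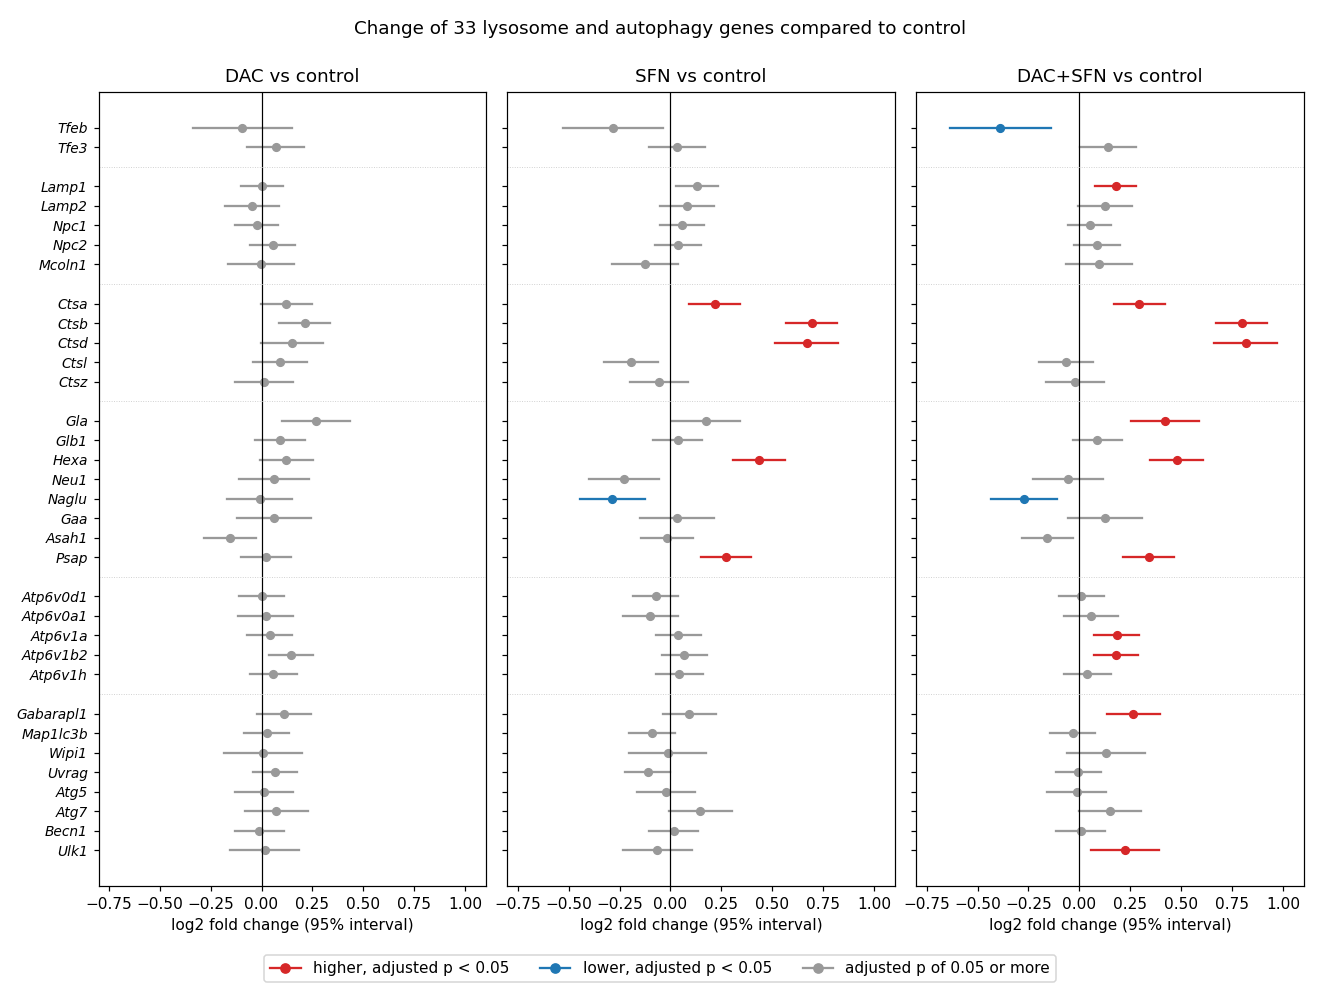
Log2 fold change of each of the 33 genes against control for DAC, SFN and DAC+SFN, with 95% intervals from edgeR, grouped by role, red for genes that rose and blue for genes that fell. Ctsb and Ctsd lie farthest to the right with SFN and DAC+SFN, at 0.67 to 0.82, while all values with DAC alone lie between -0.15 and 0.27.

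Among the 5 cathepsins chosen here, which are proteases of the lysosome, Ctsd and Ctsb changed most. The further cathepsin genes described below are not part of this ranking, and Ctsh, one of them, changed more. Ctsd (chr7:142375911-142388038, mm10) was at 1719.7, 1846 and 1562 CPM in replicates 1, 2 and 3 of control, 1879, 2002 and 1788 CPM with DAC, 2783, 3056 and 2340.3 CPM with SFN, and 3366, 3323 and 2404 CPM with DAC+SFN. Every library with SFN was above every library without it. The log2 fold change with DAC+SFN was 0.82 (SE 0.072, adjusted p = 2.96e-06). Ctsb (chr14:63122462-63145923), the gene of the cysteine protease cathepsin B, was at 534, 756 and 510.4 CPM in control, 603, 896 and 594 CPM with DAC, 839.7, 1260.4 and 823 CPM with SFN, and 996, 1333 and 810.4 CPM with DAC+SFN. Replicate 2 was the highest in all 4 groups, and within each replicate both SFN libraries were above control and DAC. Its log2 fold change with DAC+SFN was 0.80 (SE 0.059, adjusted p = 1.06e-06). Ctsa encodes cathepsin A, a carboxypeptidase that also protects a sialidase and a galactosidase in the lysosome. It was at 268, 258 and 249 CPM in control and at 322, 347 and 284 CPM with DAC+SFN, with no overlap between the groups (log2 fold change 0.29, adjusted p = 0.00174). Ctsl and Ctsz, which encode the cysteine proteases cathepsin L and cathepsin Z, did not pass the test, with log2 fold changes of -0.07 and -0.02.

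Part of the exon length of some of these genes lies opposite exons of a neighbour on the other strand, and the strand setting of the counting is not given in the sources used here, so it is not known whether reads from such stretches were separated by strand. For Ctsb these are 774 bases, 12.8% of its exon length, shared with Fdft1, which encodes squalene synthase. Fdft1 had a mean of 121 CPM in control against 72.9 CPM with DAC+SFN and fell (log2 fold change -0.75), opposite to Ctsb. For Hexa, 12.8% of the exon length is shared with Tmem202, which was at a mean of 0.969 to 2.51 CPM per group. Ctsa shares 10.5% of its exon length with Pltp and 6.9% with Neurl2, and Gabarapl1 shares 28.3% with a noncoding transcript. Becn1 shares 43.9% with Cntd1.

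Among the other hydrolases and their activators, Hexa, Psap and Gla rose and Naglu fell. Hexa (chr9:59539540-59565109) encodes the alpha subunit of beta-hexosaminidase, which breaks down gangliosides. It was at 411, 418 and 357 CPM in control, 434, 457 and 398 CPM with DAC, 553, 604 and 455 CPM with SFN, and 598, 614 and 449.8 CPM with DAC+SFN (log2 fold change 0.48, SE 0.060, adjusted p = 5.74e-05). Replicate 3 was the lowest of each group, and with DAC+SFN it was below DAC replicate 2. Psap (chr10:60277627-60302597) encodes the precursor of the saposins, which help hydrolases reach their lipids. It was at 785, 836 and 777 CPM in control, 816, 825 and 794 CPM with DAC, 936, 1085 and 884 CPM with SFN, and 1032, 1094 and 914 CPM with DAC+SFN (log2 fold change 0.34, SE 0.058, adjusted p = 0.00058). Every Psap value with SFN or DAC+SFN was above every value of control and DAC.

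Gla (chrX:134588149-134601125), the gene of alpha-galactosidase A, is among the lower expressed members. It was at 21.1, 21.0 and 21.9 CPM in control, 26.3, 25.9 and 24.8 CPM with DAC, 24.7, 24.4 and 23.2 CPM with SFN, and 28.6, 30.8 and 26.2 CPM with DAC+SFN. None of the treated libraries overlapped control, and the test was passed with DAC+SFN (log2 fold change 0.42, SE 0.078, adjusted p = 0.00107) but not with SFN (log2 fold change 0.18, adjusted p = 0.152). Naglu encodes a glycosidase of heparan sulfate breakdown and went the other way. It was at 158, 132 and 172 CPM in control, 156, 119 and 187 CPM with DAC, 139, 109 and 129 CPM with SFN, and 137, 113 and 131 CPM with DAC+SFN (log2 fold change -0.27, SE 0.075, adjusted p = 0.0133). The groups overlapped, and the fall appeared within each replicate. Without control replicate 2, Naglu had an adjusted p-value of 0.0511. The genes of beta-galactosidase (Glb1), sialidase (Neu1), acid alpha-glucosidase (Gaa) and acid ceramidase (Asah1) did not pass the test, with log2 fold changes of 0.09, -0.05, 0.13 and -0.16. Glb1 shares 5.5% of its exon length with Tmppe on the same strand.

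**Figure D3:**
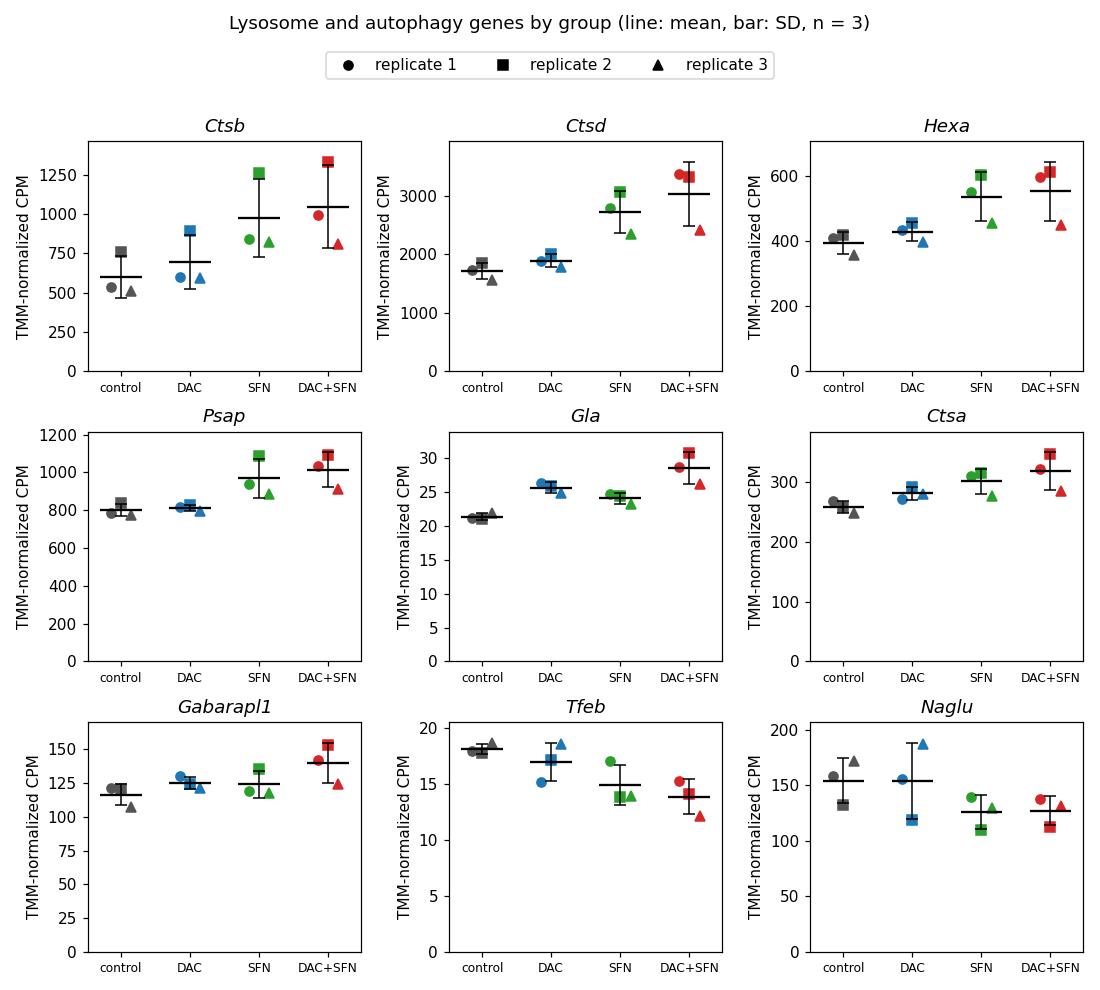
Level of 9 of the genes in each replicate of the 4 groups, in TMM-normalized CPM, with the mean as a line and the SD as a bar (n = 3). Ctsd and Psap show every SFN and DAC+SFN point above every control and DAC point, Gla shows its control points lowest, and Tfeb and Naglu show lower means in both SFN groups than in control.

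Of the membrane proteins, Lamp1, a major glycoprotein of the lysosomal membrane, rose slightly. It was at 821, 818 and 756 CPM in control and at 950.2, 896 and 863 CPM with DAC+SFN, with no overlap (log2 fold change 0.18, SE 0.048, adjusted p = 0.0118). The call was lost without control replicate 1 or control replicate 3. Lamp2, the cholesterol transporters Npc1 and Npc2 and the calcium channel gene Mcoln1 had log2 fold changes of 0.05 to 0.12 and did not pass the test. Of the V-ATPase genes, the cytosolic subunits Atp6v1a and Atp6v1b2 rose. Atp6v1a, the catalytic subunit, was at 387, 366 and 381 CPM in control and at 444, 416 and 427 CPM with DAC+SFN, again without overlap (log2 fold change 0.18, adjusted p = 0.0159). Atp6v1b2 was at 414, 423 and 380.2 CPM in control and at 484, 474 and 421 CPM with DAC+SFN, which overlapped (log2 fold change 0.18, adjusted p = 0.0154). These are rises of 1.13-fold, and the calls were kept in 4 of 6 fits with a library left out for Atp6v1a and in 2 of 6 for Atp6v1b2. The other V-ATPase members, Atp6v0d1, Atp6v0a1 and Atp6v1h, had log2 fold changes of 0.01 to 0.06.

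Of the 8 autophagy genes, Gabarapl1 and Ulk1 rose with the combination treatment. Gabarapl1, an ATG8 family gene, was at 121, 120.5 and 107 CPM in control, 130.0, 124 and 121 CPM with DAC, 119, 135 and 117 CPM with SFN, and 142, 153 and 124 CPM with DAC+SFN (log2 fold change 0.27, SE 0.061, adjusted p = 0.0047). Ulk1, the gene of the kinase that starts autophagy, was at 35.2, 40.0 and 36 CPM in control, 34.2, 38.5 and 39.3 CPM with DAC, 32.1, 40.5 and 34.0 CPM with SFN, and 43.5, 47.9 and 38.4 CPM with DAC+SFN. Its log2 fold change was 0.22 (SE 0.078, adjusted p = 0.0418), the groups overlapped, and the call was kept in 1 of 6 fits with a library left out. Atg5, whose product acts in the conjugation of ATG8 proteins, was at 37.8 ± 2.61, 38.0 ± 1.53, 37.2 ± 1.69 and 37.4 ± 2.09 CPM in control, DAC, SFN and DAC+SFN (SD, n = 3). Becn1 was at 150 ± 5.30, 148 ± 6.42, 151 ± 1.98 and 150 ± 6.31 CPM. Map1lc3b, the gene of LC3B, was at 126 ± 4.18, 128 ± 5.82, 118 ± 1.83 and 123 ± 4.51 CPM, with a log2 fold change of -0.03 with DAC+SFN. Atg5, Becn1 and Map1lc3b did not pass the test in any comparison. Atg7, Uvrag and Wipi1 did not pass it with DAC+SFN either, with log2 fold changes of 0.15, -0.0047 and 0.13.

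Tfeb itself fell. It was at 18, 17.8 and 18.7 CPM in control, 15.2, 17.2 and 18.6 CPM with DAC, 17.0, 13.8 and 14 CPM with SFN, and 15.3, 14.1 and 12.2 CPM with DAC+SFN. All 3 DAC+SFN values were below all control values (log2 fold change -0.39, SE 0.12, adjusted p = 0.0195), and the call was kept in 3 of 6 fits with a library left out. Tfe3, its relative, had 58.5 ± 1.81 CPM in control against 64.5 ± 5.66 CPM with DAC+SFN (log2 fold change 0.14, adjusted p = 0.115). Mitf, of the same family, had means of 374 CPM in control and 353 CPM after both drugs. The test of Tfeb covers its RNA only, and the place of the protein in the cell was not measured.

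For SFN alone against control, 5 of the 33 genes rose (15.2%) and 1 fell (3.03%), where 8.27% of all tested genes rose and 5.65% fell. None passed a fold change of 2, which 1.28% of all tested genes did in either direction. The genes that rose were Ctsb, Ctsd, Hexa, Psap and Ctsa, and the gene that fell was Naglu, so all 6 belonged to the cathepsins and hydrolases. Their log2 fold changes were 0.69 for Ctsb (SE 0.059, adjusted p = 6.27e-06), 0.67 for Ctsd (SE 0.071, adjusted p = 3.62e-05) and 0.44 for Hexa (SE 0.060, adjusted p = 0.000285). Psap followed at 0.27 (adjusted p = 0.00601), Ctsa at 0.22 (adjusted p = 0.0231) and Naglu at -0.29 (adjusted p = 0.0197). The median over the 33 genes was 0.03, against 0.0040 over all tested genes. Without the replicate block none of the 33 and 0.198% of all tested genes passed the test, and without SFN replicate 2 the count was 3 (6.26% of all), namely Ctsb, Ctsd and Hexa. Over the 6 fits with a control or SFN library left out, Ctsb, Ctsd and Hexa were called in 6, Psap in 5, Naglu in 1 and Ctsa in 0. Ctsl was at 225, 196 and 198 CPM in control and at 177, 183 and 179.7 CPM with SFN, lower without overlap, and missed the threshold (log2 fold change -0.19, adjusted p = 0.0515), which it passed in 6 of 7 fits with other settings and in 0 of 6 with a library left out. No membrane protein, V-ATPase subunit, autophagy gene or transcription factor of the 33 passed the test with SFN, and Tfeb had a log2 fold change of -0.28 (adjusted p = 0.117).

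With DAC alone, none of the 33 genes passed the test in edgeR or in DESeq2. In edgeR, 0.18% of all tested genes rose and 0% fell, and DESeq2 called 0.713% of them. The unadjusted p-value in edgeR was under 0.05 for 4 of the 33 (12.1%), Gla, Ctsb, Atp6v1b2 and Asah1. This share was near the 10.1% of all tested genes. Gla had a log2 fold change of 0.27 (95% interval 0.100 to 0.435, adjusted p = 0.212) and Ctsb of 0.21 (95% interval 0.088 to 0.338, adjusted p = 0.186). The Gla libraries with DAC were all above those of control. The 95% intervals of all 33 genes lay between -0.34 and 0.43. A fit of the control and DAC samples alone called 5 of the 33 genes, 4 higher and 1 lower, and 5.69% of all tested genes.

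The combination was then compared with each single treatment. Against DAC, 5 of the 33 genes rose and 1 fell, where 9.55% of all tested genes rose and 6.6% fell. Ctsb rose by 0.58 (adjusted p = 3.63e-05), Ctsd by 0.67 (adjusted p = 5.74e-05), Hexa by 0.36 (adjusted p = 0.00147), Psap by 0.32 (adjusted p = 0.00248) and Lamp1 by 0.18 (adjusted p = 0.0229) on the log2 scale, and Naglu was lower, at -0.26 (adjusted p = 0.0292). Without the replicate block none of these passed the test, and 0.172% of all tested genes did. With a DAC or DAC+SFN library left out, Ctsb, Ctsd, Hexa and Psap were called in 6 of 6 fits, Lamp1 in 3 and Naglu in 2. Against SFN, none of the 33 genes passed the test in edgeR, where 0.937% of all tested genes rose and 0.67% fell. An unadjusted p-value under 0.05 was found for 9 of the 33 (27.3%) and for 17.8% of all tested genes. DESeq2 called 1 of the 33, Ulk1, higher with the combination, and 404 of 10961 genes in all (3.69%). In edgeR, Ulk1 had a log2 fold change of 0.29 (95% interval 0.120 to 0.453, adjusted p = 0.0721), Gla of 0.24 (adjusted p = 0.111), Mcoln1 of 0.22 (adjusted p = 0.138) and Gabarapl1 of 0.17 (adjusted p = 0.152). For Ctsb the difference was 0.10 (95% interval -0.021 to 0.228) and for Ctsd 0.15 (95% interval -0.0038 to 0.30). Without DAC+SFN replicate 3, 3 of the 33 genes and 6.01% of all tested genes passed the test against SFN. A fit of the SFN and DAC+SFN samples alone called 4 of the 33 genes, all higher, and 10.5% of all tested genes.

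The interaction asks whether the effect of both drugs departs from the sum of the single effects on the log2 scale. None of the 33 genes passed this test in edgeR or DESeq2, and neither did any other tested gene in edgeR (0%), while 683 tested genes had an unadjusted p-value under 0.05. Of the 33, only Ulk1 had an unadjusted p-value under 0.05, with an interaction of 0.27 (95% interval 0.034 to 0.508, adjusted p = 0.847). For Ctsb it was -0.11 (95% interval -0.286 to 0.067) and for Hexa -0.08 (95% interval -0.262 to 0.0999). These comparisons share their control or treated libraries, so the same gene in several of them is not independent evidence.

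Summed over the 33 genes, the level was 9029 ± 370 CPM in control, 9479 ± 261 CPM with DAC, 10800.2 ± 851 CPM with SFN and 11528 ± 1170 CPM with DAC+SFN (SD, n = 3). Ctsd alone made up a mean of 1709 CPM of the sum in control and 3031 CPM with DAC+SFN. In bulk RNA, a higher share of a gene cannot be told apart from less RNA of other genes.

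The wider pathway was followed in 153 further genes, listed by function, of which 152 were in the files and 144 were tested. These lists too were chosen with earlier results of these data known. With DAC+SFN, 37 of the 144 rose (25.7%) and 17 fell (11.8%), and with SFN alone 19 rose (13.2%) and 10 fell (6.94%), to be read against the percentages of all tested genes above. By list, the rises with DAC+SFN were 12 of 38 hydrolases, 10 of 22 membrane and sorting genes, 6 of 14 V-ATPase genes, 3 of 32 genes of autophagosome formation, 1 of 10 autophagy receptors and 5 of 28 regulators of mTORC1 and TFEB. The falls in the same order were 2, 3, 1, 4, 2 and 5. With SFN alone the rises were 7, 8, 3, 0, 1 and 0, and the falls 1, 1, 1, 3, 3 and 1.

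**Figure D4:**
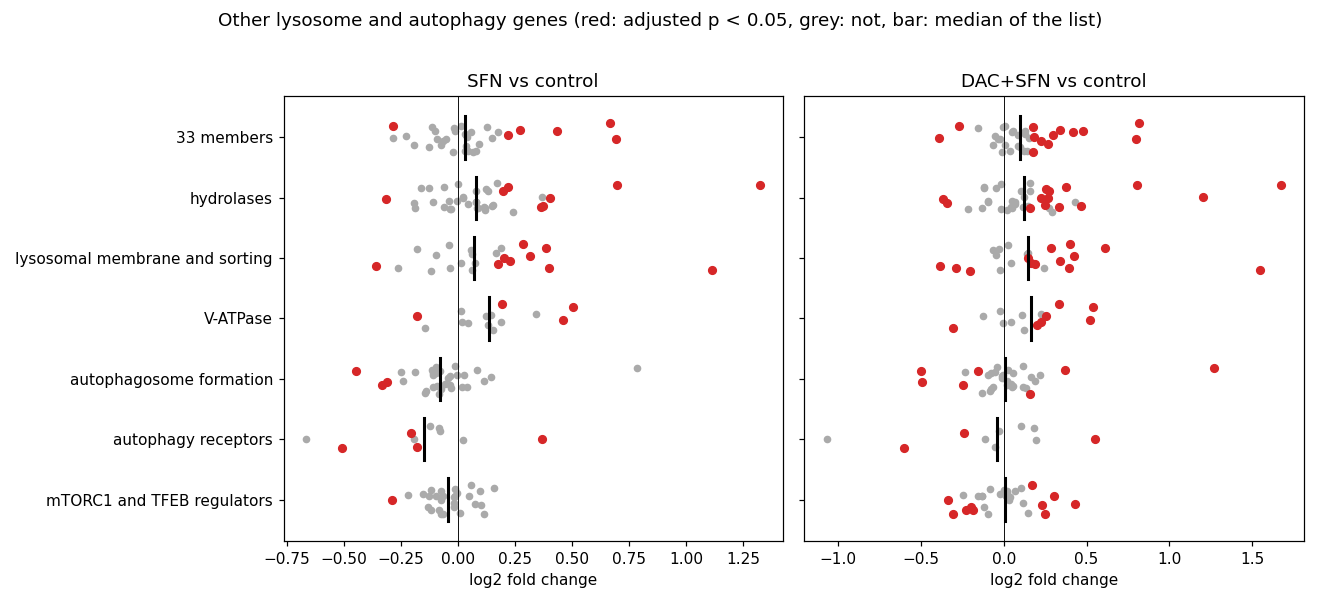
Log2 fold change against control of the 33 genes (top row) and of the 144 further tested genes by list, for SFN and DAC+SFN, with 1 point per gene, red where the adjusted p-value is below 0.05, and a bar at the median of the list. Called hydrolase and membrane genes lie mostly above 0, and called genes of autophagosome formation with SFN lie below 0.

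Lipa, the acid lipase that frees cholesterol from its esters, was at 208, 248 and 194 CPM in control, 233, 268 and 208 CPM with DAC, 333, 419 and 304 CPM with SFN, and 399, 407 and 329 CPM with DAC+SFN. It rose by 0.69 with SFN (adjusted p = 5.88e-06) and by 0.81 with DAC+SFN (adjusted p = 8.65e-07) on the log2 scale, and both SFN groups lay above control and DAC without overlap. Ctsh, the gene of cathepsin H, was at 6.95, 7.27 and 6.27 CPM in control, 10.8, 13.5 and 9.78 CPM with DAC, 14.5, 23.6 and 13.9 CPM with SFN, and 20.8, 30 and 15.8 CPM with DAC+SFN. Its log2 fold change was 1.32 with SFN (adjusted p = 1.87e-05) and 1.67 with DAC+SFN (adjusted p = 1.51e-06). With DAC alone Ctsh was the only gene of the 144 to pass the test, at 0.74 (adjusted p = 0.0455), and this call was lost in each of the 6 fits with a control or DAC library left out.

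Cd68, a lysosomal membrane glycoprotein best known from macrophages, was at 2.94, 4.78 and 2.31 CPM in control and at 9.61, 11.2 and 8.27 CPM with DAC+SFN (log2 fold change 1.55, adjusted p = 1.98e-05), and it rose by 1.11 with SFN (adjusted p = 0.000729). Of the macrophage markers, Csf1r had no more than 3 counts per library and Adgre1 had 0 in all 12. Igf2r, the large receptor that sorts hydrolases to the lysosome, rose by 0.39 with SFN (adjusted p = 0.00201) and by 0.61 with DAC+SFN (adjusted p = 2.48e-05). The glycosidase genes Gusb and Aga rose by 0.37 each with SFN and by 0.33 and 0.47 with DAC+SFN. Atg4a, a protease that processes ATG8 proteins, fell with SFN (log2 fold change -0.45, adjusted p = 0.00044) and with DAC+SFN (log2 fold change -0.50, adjusted p = 8.4e-05), and its mean was 41.7 ± 3.51 CPM in control, 30.5 ± 2.32 CPM under SFN and 29.5 ± 2.94 CPM under both drugs. Of the 144 genes, Ctsf and Sesn3 rose with DAC+SFN against SFN, by 0.84 (adjusted p = 0.0278) and 0.40 (adjusted p = 0.0243), and these calls were kept in 2 and 3 of 6 fits with a library left out.

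Some genes of the short counts were singled out after their values were seen. The other autophagosome formation genes that fell with SFN were Tmem41b (-0.31) and Atg9a (-0.33). With DAC+SFN, Tmem41b (-0.50), Atg9a (-0.25) and Atg3 (-0.16) fell, and the lipid transfer genes Atg2a (0.37) and Atg2b (0.16) and Atg9b (1.27) rose. Atg9b was close to the filter of 1 CPM. It was at 0.690, 0.903 and 0.411 CPM in control and at 1.32, 2.44 and 1.17 CPM with DAC+SFN. Among the receptors, Sqstm1, the gene of p62, rose by 0.37 with SFN (adjusted p = 0.0177) and by 0.55 with DAC+SFN (adjusted p = 0.00058), and Bnip3l, a mitochondrial receptor, fell by 0.51 (adjusted p = 0.0181) and 0.61 (adjusted p = 0.00322). Bnip3l was at 147, 77.3 and 155 CPM in replicates 1, 2 and 3 of control. It was at 94.9, 71.3 and 92.8 CPM with SFN and at 72.8, 73.8 and 93.9 CPM with DAC+SFN. Replicate 2 thus changed least. Fundc1, another mitochondrial receptor, fell by 0.21 and 0.24, and Tollip fell by 0.18 with SFN. Of the hydrolase genes, Ctsc, the gene of cathepsin C, fell with SFN (-0.31) and with DAC+SFN (-0.37). The cystine exporter gene Ctns fell in both comparisons (-0.36 and -0.38), and Tpcn1 (-0.29) and Tmem55b (-0.20) fell with DAC+SFN. Among the V-ATPase genes, Tcirg1 (0.46), Atp6v0a4 (0.51) and Atp6ap1 (0.19) rose and Atp6v1d (-0.18) fell with SFN, and Atp6v1g1 (-0.30) fell with DAC+SFN. Of the regulators, Depdc5 fell in both (-0.29 and -0.34). With DAC+SFN, Sesn2 (0.43), Flcn (0.25), Sesn3 (0.31), Rptor (0.23) and Tsc2 (0.17) rose, and Seh1l (-0.20), Lamtor5 (-0.31), Lamtor3 (-0.23) and Rraga (-0.19) fell. The changes given here are log2 fold changes against control.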

How the data were processed

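RNA sequencing of 12 B16F10 libraries (3 replicates in each of 4 groups, TruSeq stranded mRNA, single-end reads) was used. The authors deposited read counts per gene symbol, made by trimming with Trimmomatic, aligning to mm10 with TopHat and counting uniquely aligned reads on known genes with htseq in Blast2GO, without normalization. The annotation and strand setting of the counting are not given in the sources used here. Groups, replicate numbers and doses came from the labels. The study describes the 3 replicates as independent repeats.

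Genes that reached 1 CPM in 3 or more of the 12 libraries were kept, scaled by TMM and tested with glmQLFTest in edgeR 4.0.16 (legacy fit, R 4.3.3, two-sided), with all 12 samples in 1 model and Benjamini-Hochberg adjustment over 11638 genes. A gene rose or fell at an adjusted p-value under 0.05. The methods of the study correct for a batch that their text does not name, so the replicate number, which the library numbers follow, was used as a block. Same-numbered libraries of different groups had deviations that correlated by 0.269 to 0.729 (mean 0.544, 18 pairs). SE was obtained by dividing the log2 fold change by the root of F. CPM values are TMM-normalized, and levels per kb use the union of exons in GENCODE M21 (mm10), which understates genes with long rare exons. Genes were followed by symbol, since in the files Npc1, Glb1 and Hexa each share an Entrez identifier with another symbol. The fits were tested on simulated data.

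The members and lists were chosen with earlier results of these data known. All 33 members could be named. Of the further pathway genes, the text names the 5 with the smallest adjusted p-values with SFN and with DAC+SFN, and any called with DAC, against SFN or for the interaction; others are stated to have been chosen after their values were seen. Some results for single genes of the lists are left out of the text. Promoters were printed for members called with DAC+SFN that hold CACGTG, plus 1 uncalled member. Of the uncalled members with CACGTG, it had the highest adjusted p-value. The alternatives were DESeq2 1.42.0 (size factors, Wald test), the version 4 fit of edgeR, no filter, at least 10 counts in every sample, no block, only the groups compared, a fold change above 2 and each sample left out in turn. Plots were made in Python 3.11.15 (matplotlib 3.10.9).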

Additional observations from a re-analysis of the deposited data

How the results depend on the processing

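Without the replicate block, the number of the 33 genes called was 0 in place of 6 with SFN, 6 (all higher) in place of 13 with DAC+SFN and 0 in place of 6 for DAC+SFN against DAC, where 0.198%, 10.3% and 0.172% of all tested genes were called. The 6 were Ctsa, Ctsb, Ctsd, Gla, Hexa and Psap. With a fold change above 2 also required, the count was 0 in these comparisons. With only the compared groups in the fit, 5 genes were called with DAC (5.69% of all tested genes) and 4 for DAC+SFN against SFN (10.5% of all), in place of 0, and DESeq2's Wald test called 1 for DAC+SFN against SFN (3.69% of all). With each sample left out in turn, the counts ran from 3 to 5 with SFN (3 without SFN replicate 2), 8 to 13 with DAC+SFN (8 without control replicate 2), 4 to 7 for DAC+SFN against DAC and 0 to 3 for DAC+SFN against SFN (3 without DAC+SFN replicate 3), and were 0 with DAC and for the interaction. The share of all tested genes called in these fits also varied. It ran from 6.26% to 12.6% with SFN and from 20.1% to 36.1% with DAC+SFN. For DAC+SFN it ran from 6.62% to 20.5% against DAC and from 0% to 6.01% against SFN. With DAC+SFN, Ctsa, Ctsb, Ctsd, Gla, Hexa, Psap and Gabarapl1 were called in 6 of 6 such fits. The cause of these differences was not tested. The other settings kept each count within 1.5 times the one reported. Over the 123 log2 fold changes printed for single genes and 1618 refits, a call was lost in 265 and gained in 23, and the direction turned in 11, all of genes near 0 that did not pass the test with DAC+SFN. These were Atp6v0d1 (-0.0146 without the filter, -0.0018 with only the groups compared, -0.0244 to 0.0407 with a sample left out), Ctsz (-0.107 to 0.0391), Uvrag (-0.0357 to 0.00765) and Neu1 (-0.163 to 0.000627, each with a sample left out). Depth was not limiting for the 33 genes, each with at least 261 counts per library, and the 95% interval of a log2 fold change extended to either side by a median of 0.13.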
